A study of Homo sapiens with 16 samples.

Results

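The Fc receptor and leukocyte immunoglobulin-like receptor (LILR) genes described here are FCGR1A, FCGR2A, FCGR2B, FCER1G, FCAR, LILRA1, LILRB1, LILRB2, LILRB3 and LILRB4. They were found by symbol and are 10 of the 23575 genes in the count table. RNA was sequenced from HL-60, a human promyelocytic leukaemia line, labelled wild type throughout. The differentiated, neutrophil-like cells (dHL-60) gave 12 libraries in 6 groups of 2: LTA at 1 or 10 µg/ml for 4 or 24 h, and untreated cells at both times. The undifferentiated cells (uHL-60) gave 4 libraries in 4 groups of 1: LTA at 1 µg/ml for 4 or 24 h, and untreated cells at both times. LTA is lipoteichoic acid of Staphylococcus aureus, a cell wall glycolipid that cells sense through TLR2. HL-60 is 1 line from 1 leukaemia, and the sources used here do not give the agent that differentiated it. Library totals ran from 9653374 to 20157081 counts, which are whole numbers of reads per gene. Levels are CPM, counts scaled to TMM-adjusted library size. Intervals and floors hold counting error alone. The labels do not state whether the 2 dHL-60 libraries of a group are separate cultures, so a p-value here speaks of the spread between libraries, which may be technical.

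Fc receptors bind the constant part of antibodies and let phagocytes take up what the antibodies coat. FCGR1A (CD64, the high-affinity IgG receptor) and FCAR (CD89, the IgA receptor) have no signalling motif of their own and pair with the common γ chain FCER1G, whose activating motif (ITAM) recruits the kinase SYK. FCGR2A (CD32a) carries an ITAM in its own tail, whereas FCGR2B (CD32b) carries the inhibitory motif (ITIM) that recruits phosphatases. LILR genes sit close together on chromosome 19. LILRA1 is an activating receptor that also uses FCER1G, and LILRB1, LILRB2, LILRB3 and LILRB4 are inhibitory receptors with ITIMs, of which LILRB1 and LILRB2 bind HLA class I molecules.

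Promoters are shown for 2 sets of genes. LILRA1, LILRB1 and LILRB2 fell with LTA at 4 h and rose at 24 h in the data that follow. FCGR1A and FCGR2A are shown for a run of bases that their windows share; both rose at 24 h, as did all 9 members tested. The windows run from 250 bases before to 50 bases after a transcript start, 5′ to 3′ on the gene's strand, from RefSeq on GRCh38.p14. Of the 10 genes, 9 matched that table with 15 promoters in all. Capitals in LILRB1 and LILRB2 mark aligned bases that differ from LILRA1. In FCGR1A and FCGR2A, capitals mark TTCCTC, the reverse complement of the core GAGGAA bound by the myeloid factor PU.1, and in FCGR1A also a match to TTCNNNGAA (GAS), the letters bound by STAT factors.
LILRA1: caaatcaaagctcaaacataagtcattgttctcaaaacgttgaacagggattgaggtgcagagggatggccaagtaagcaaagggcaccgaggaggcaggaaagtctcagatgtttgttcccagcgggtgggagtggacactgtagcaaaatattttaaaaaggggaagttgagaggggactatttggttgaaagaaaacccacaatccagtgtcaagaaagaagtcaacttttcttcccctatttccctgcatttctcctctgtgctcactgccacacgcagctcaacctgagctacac
LILRB1: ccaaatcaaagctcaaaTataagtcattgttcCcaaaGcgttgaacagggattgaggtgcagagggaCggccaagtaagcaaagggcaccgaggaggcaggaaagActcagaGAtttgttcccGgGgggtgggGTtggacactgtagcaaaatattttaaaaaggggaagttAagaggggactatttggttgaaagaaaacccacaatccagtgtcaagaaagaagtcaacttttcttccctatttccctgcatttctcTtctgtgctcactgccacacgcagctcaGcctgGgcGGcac
LILRB2: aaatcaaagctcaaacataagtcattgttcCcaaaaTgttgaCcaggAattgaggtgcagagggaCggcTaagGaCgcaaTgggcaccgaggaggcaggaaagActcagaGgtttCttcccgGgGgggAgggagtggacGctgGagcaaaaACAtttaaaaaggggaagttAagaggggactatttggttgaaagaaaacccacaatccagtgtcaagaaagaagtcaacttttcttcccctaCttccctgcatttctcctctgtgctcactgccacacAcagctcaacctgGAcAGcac
FCGR1A: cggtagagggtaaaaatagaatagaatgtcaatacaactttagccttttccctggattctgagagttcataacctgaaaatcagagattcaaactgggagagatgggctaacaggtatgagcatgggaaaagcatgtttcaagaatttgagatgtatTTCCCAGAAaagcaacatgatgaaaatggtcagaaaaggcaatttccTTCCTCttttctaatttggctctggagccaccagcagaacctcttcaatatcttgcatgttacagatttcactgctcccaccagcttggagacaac
FCGR2A: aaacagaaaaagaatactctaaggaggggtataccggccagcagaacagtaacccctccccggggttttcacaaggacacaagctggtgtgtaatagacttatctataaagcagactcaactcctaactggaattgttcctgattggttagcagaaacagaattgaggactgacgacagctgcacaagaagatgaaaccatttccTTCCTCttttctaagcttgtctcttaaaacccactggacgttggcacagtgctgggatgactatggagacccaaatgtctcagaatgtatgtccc
The windows lie at chr19:54593382-54593681 (LILRA1, plus strand), chr19:54630234-54630533 (LILRB1, plus strand), chr19:54281061-54281360 (LILRB2, minus strand), chr1:149782444-149782743 (FCGR1A, plus strand) and chr1:161505207-161505506 (FCGR2A, plus strand).

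The LILRA1 window was identical to that of LILRB1 at 282 of 299 aligned bases (94.3%) and to that of LILRB2 at 272 of 299 (91.0%), and LILRB1 and LILRB2 shared 273 of 298 (91.6%). LILRB1 and LILRB2 each have 3 windows in the table, and the one that aligns with LILRA1 over most bases is printed. No window of LILRB3, LILRB4 or an Fc receptor gene aligned with the LILRA1 window over 250 bases or more. FCGR1A and FCGR2A shared a run of 20 bases, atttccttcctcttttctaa, that begins 52 bases before the start in FCGR1A and 51 bases before it in FCGR2A. Both strands were searched for 5 motifs. GAGGAA was in 6 of the 15 promoters against 27.9% of 35116 RefSeq promoters, TTCNNNGAA in 3 against 7.66%, and TGANTCA (AP-1) in 2 against 7.71%. The interferon response motif was in 1 against 3.57%, and TTGCNNAA (C/EBP) in 0 against 10.5%. Matches of different motifs may overlap, and a match describes the letters only.

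On GRCh38 in RefSeq, FCGR1A lies on chromosome 1 from 149782694 to 149800609, FCER1G on chromosome 1 from 161215295 to 161219245, FCGR2A on chromosome 1 from 161505457 to 161524048 and FCGR2B on chromosome 1 from 161647243 to 161678654. On chromosome 19, LILRB3 lies from 54216278 to 54223007 and LILRB2 from 54273812 to 54281110. Further along are LILRA1 from 54593632 to 54602381, LILRB1 from 54616322 to 54638022, LILRB4 from 54662985 to 54668718 and FCAR from 54874235 to 54891420. Counts are per whole gene over its exons and do not separate exons or untranslated regions.

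The uHL-60 columns follow another sort order of the symbols than the rest of the table, so 1343 symbols were realigned, and 0 of them are receptor genes described here. The cell label was checked against markers. Summed over 10 neutrophil markers, untreated dHL-60 held 454 to 477 CPM at 24 h and 1020.2 to 1181 CPM at 4 h, against 112 to 141 CPM in the 4 uHL-60 libraries. The late neutrophil markers FCGR3B, CXCR1, MME and CEACAM8 stayed at or under 3.16 CPM in every dHL-60 library. B cell markers summed to at most 3.44 CPM in any library. The uHL-60 and dHL-60 columns also differ for genes whose exons overlap another gene on the same strand. Among genes at 5 CPM or more in untreated cells of either state, the median log2 ratio of dHL-60 to uHL-60 (0.1 CPM added) was -4.41 for 164 genes with over 50% of exon bases shared, against -0.02 for 8002 genes with none. CD68, a macrophage marker with 81.7% of its exon bases shared, stood at 0.147 to 0.879 CPM in dHL-60 and 14.8 to 18.3 CPM in uHL-60. Of the receptor genes, LILRB4 shares 13% of its exon bases, FCGR2A 3.8% and the others 0%.

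Close relatives of these genes can share reads. Of all stretches of 75 bases in the GENCODE v29 transcripts of FCGR1A, 46.3% also occur in another gene, mostly FCGR1B. The share was 16.9% for LILRB3 (mostly LILRA6), 11.6% for LILRB4 (mostly the pseudogene VN1R105P), 11% for FCGR2B and 10.1% for FCGR2A (both mostly FCGR2C), 8.8% for LILRB1 and 7.8% for LILRB2. It was 0.9% for LILRA1 and 0 for FCER1G and FCAR. The sources used here do not give how reads with several matches were counted. The counts of the members with a share above 0 are uncertain to that extent, those of FCGR1A most.

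**Figure D1:**
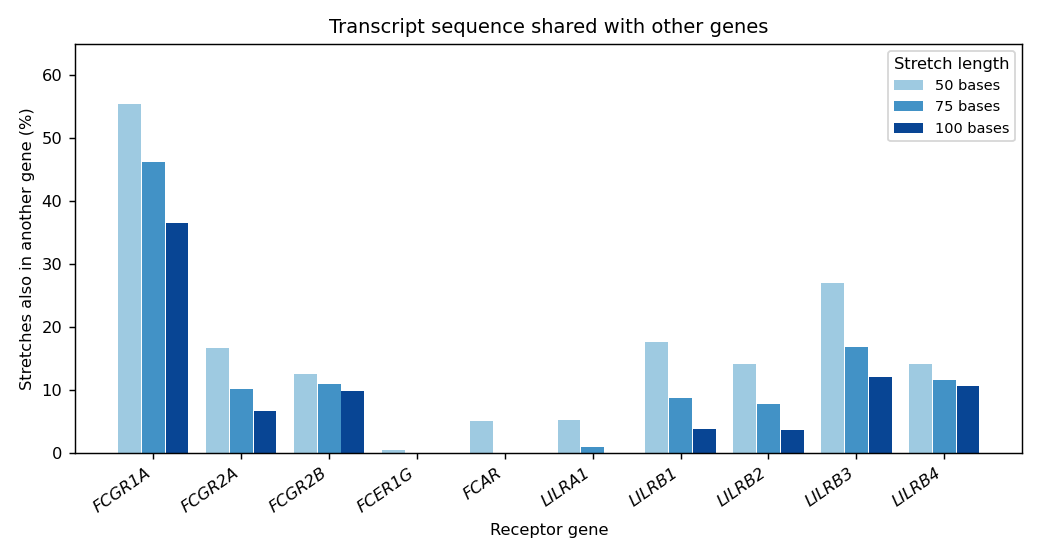
Percent of all stretches of 50, 75 or 100 bases in each receptor gene's transcripts that also occur in a transcript of another gene. FCGR1A has the tallest bars (55.4% at 50 bases and 36.5% at 100 bases), and FCER1G, FCAR and LILRA1 are at or near 0 from 75 bases on.

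Per kilobase of exon, FCER1G had the highest level of the set in all 10 groups and FCAR the second highest in all 6 dHL-60 groups. In untreated dHL-60 at 4 h, FCER1G stood at 347 CPM per kb, FCAR at 45.1, LILRB2 at 21.2, FCGR2A at 13.3, LILRB3 at 11.5, FCGR1A at 10.6, LILRA1 at 6.41, LILRB1 at 0.799 and FCGR2B at 0.171. The libraries of FCGR2A, LILRB3 and FCGR1A overlapped in that order, and all other neighbours were apart. With 10 µg/ml LTA at 24 h the order was FCER1G (823 CPM per kb), FCAR (44.1), LILRB2 (38.2), FCGR1A (26.5), FCGR2A (22), LILRB3 (16), LILRA1 (10.2), LILRB1 (5.99) and FCGR2B (2.90), with no overlap between neighbours.

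**Figure D2:**
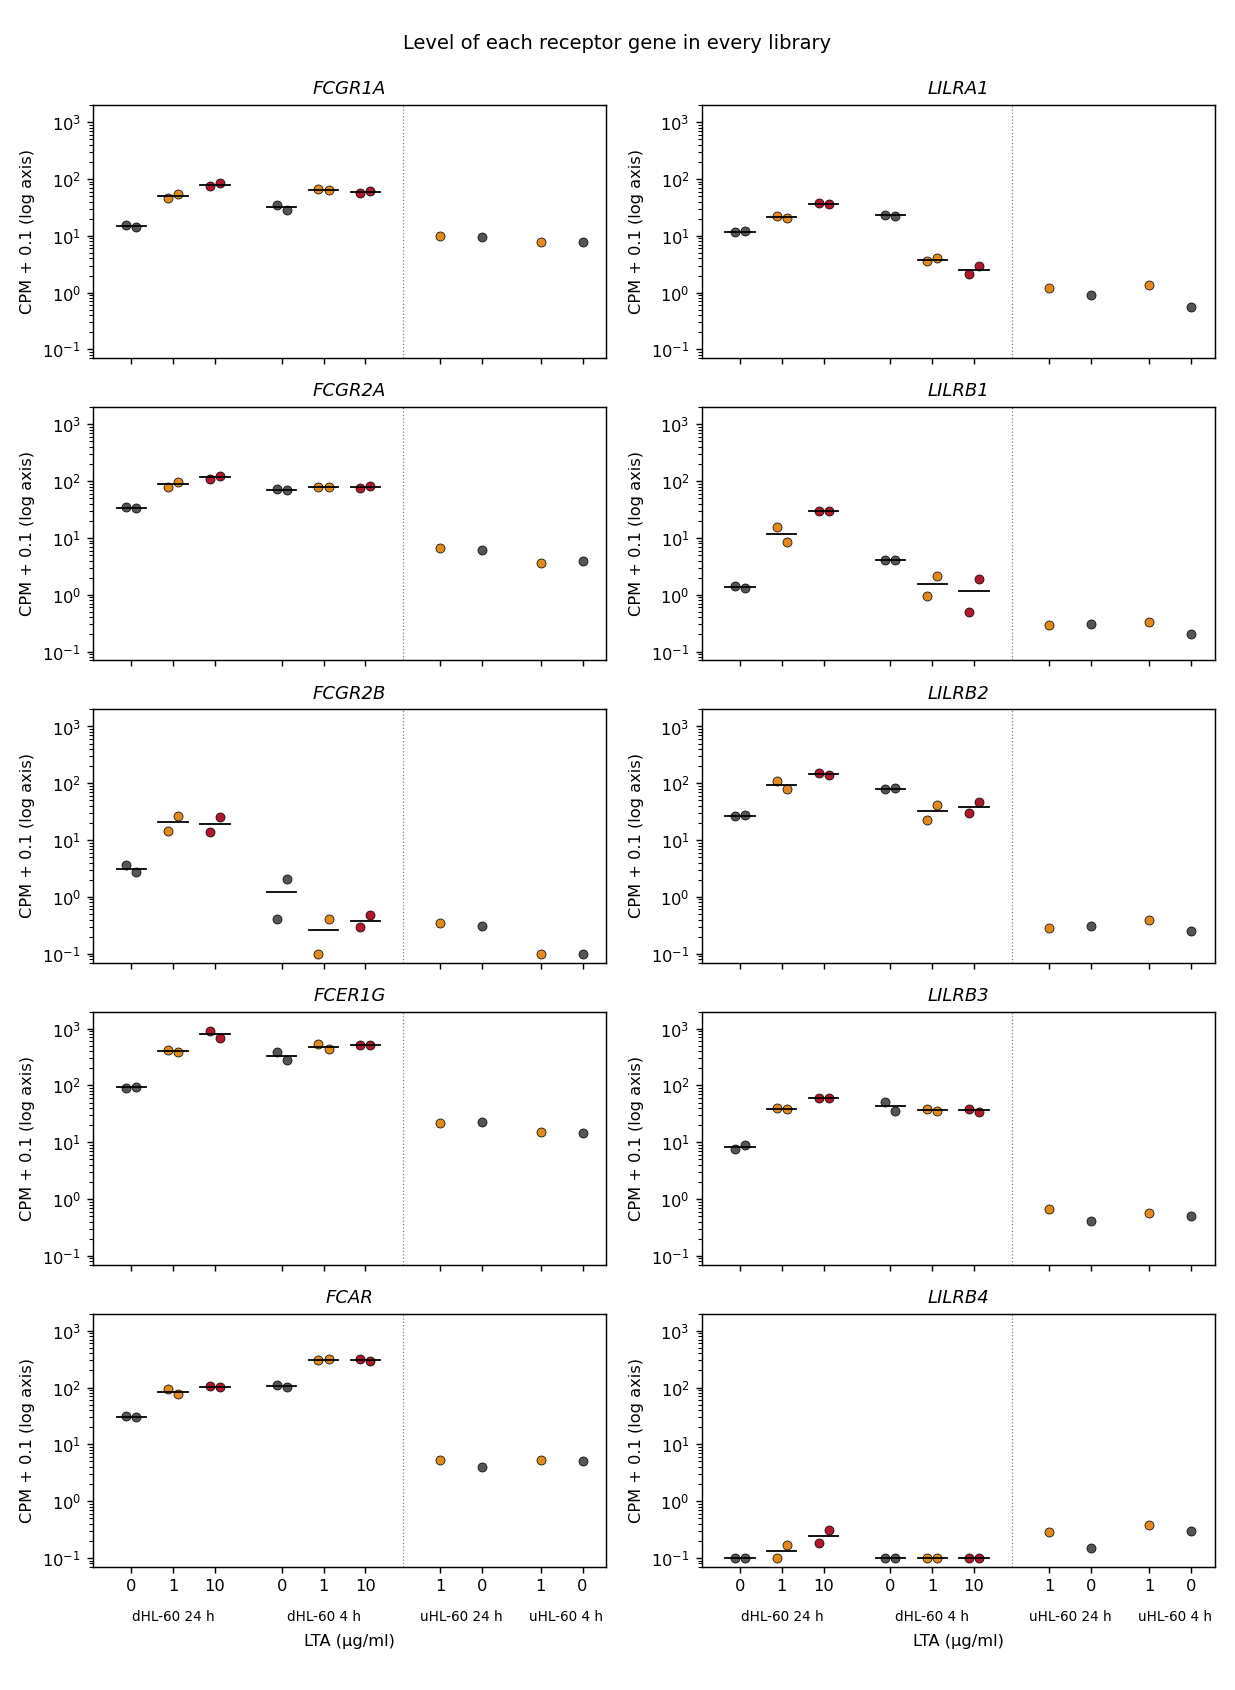
Level of each receptor gene in each of the 16 libraries as CPM + 0.1 on a log axis, by LTA dose in µg/ml, time and cell state, with a line at the mean of 2 libraries. The uHL-60 libraries, at the right, lie below all dHL-60 libraries for every gene but FCGR2B and LILRB4.

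LTA split the set at 4 h and raised it as a whole at 24 h. After 4 h with 1 µg/ml, FCGR1A, FCER1G and FCAR rose and LILRA1, LILRB1 and LILRB2 fell, so that 6 of the 9 members tested were called, against 38.7% of all 11866 genes tested. With 10 µg/ml the same 3 rose and the same 3 fell, again 6 of 9, against 41.3% of all genes. After 24 h all 9 members tested rose with 1 µg/ml, against 21.2% of all genes called in either direction, and all 9 rose with 10 µg/ml, against 42.6%. LILRB4 did not pass the filter on low counts, and FCGR2B passed it through its 24 h groups. The median log2 change of the 9 was -0.22 and -0.24 at 4 h with 1 and 10 µg/ml, beside -0.04 over all genes tested at both doses, and 1.84 and 2.48 at 24 h, beside 0.01 and -0.01.

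**Figure D3:**
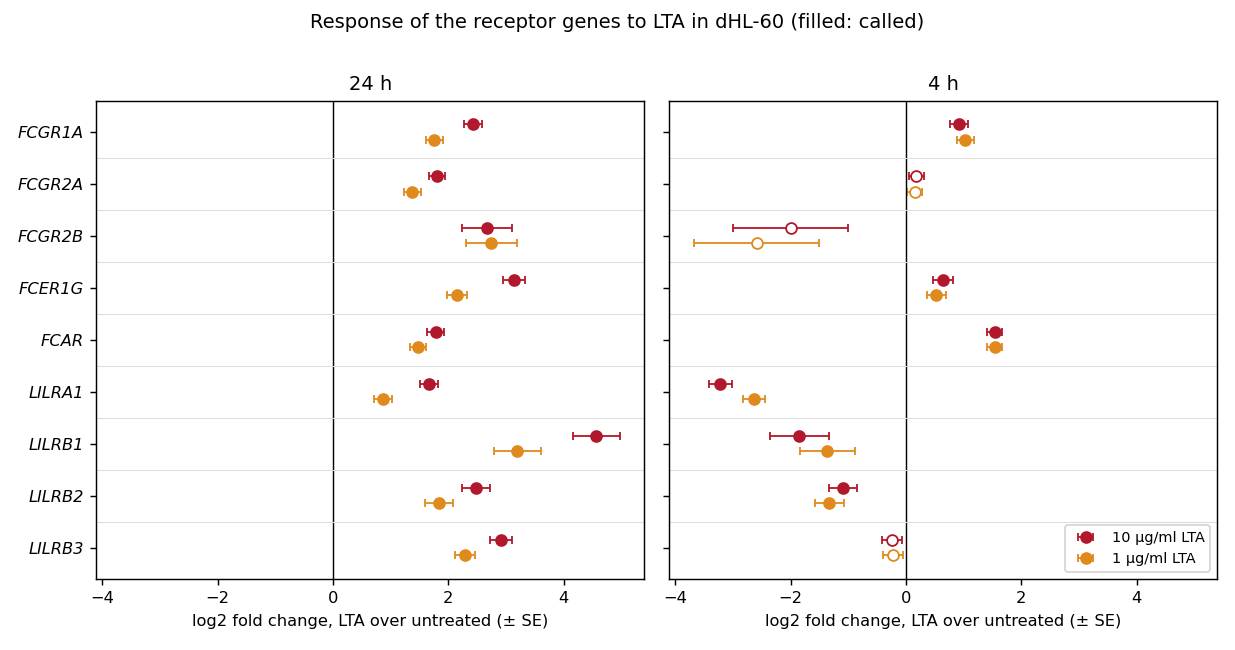
Log2 fold change of LTA over untreated dHL-60 with its SE for 9 receptor genes, at 24 h on the left and 4 h on the right, by dose; filled points were called. All points at 24 h lie to the right of 0, while at 4 h LILRA1, LILRB1 and LILRB2 lie to the left.

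FCGR1A, the high-affinity IgG receptor, rose at both times. FCGR1A stood at 4 h at 35 and 28.4 CPM in untreated dHL-60, 65.4 and 63.5 CPM with 1 µg/ml and 56.9 and 61.4 CPM with 10 µg/ml. FCGR1A stood at 24 h at 15.7 and 14.3 CPM untreated, 46.9 and 54.5 CPM with 1 µg/ml and 75 and 84.2 CPM with 10 µg/ml. No LTA library overlapped the untreated ones of its time, and at 24 h the doses were apart as well. The log2 change at 4 h was 1.03 ± 0.15 with 1 µg/ml and 0.92 ± 0.15 with 10 µg/ml (SE, taken from the F statistic; adjusted p = 0.00011 and 0.000257). At 24 h it was 1.76 ± 0.15 and 2.43 ± 0.15 (adjusted p = 3.24e-06 and 7.18e-08).

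FCGR2A, the ITAM-bearing IgG receptor, rose at 24 h, and its 4 h changes were not called. FCGR2A stood at 4 h at 72.4 and 68.8 CPM untreated, 78.3 and 78.0 CPM with 1 µg/ml and 76.6 and 81.5 CPM with 10 µg/ml, and the log2 changes were 0.15 ± 0.13 and 0.18 ± 0.13 (adjusted p = 0.405 and 0.304). FCGR2A stood at 24 h at 34.4 and 33.6 CPM untreated, 79.4 and 96.0 CPM with 1 µg/ml and 109 and 125 CPM with 10 µg/ml. All LTA libraries at 24 h lay above the untreated ones, and the doses were apart. The rises were 1.38 ± 0.14 and 1.81 ± 0.14 (adjusted p = 1.07e-05 and 3.55e-07).

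FCGR2B, the inhibitory IgG receptor, had few counts at 4 h and rose at 24 h. The 6 libraries at 4 h held 0 to 23 counts: 3 and 23 in untreated cells, 0 and 4 with 1 µg/ml and 2 and 4 with 10 µg/ml. FCGR2B stood at 24 h at 3.50 and 2.62 CPM untreated, 14.6 and 26.7 CPM with 1 µg/ml and 13.6 and 24.9 CPM with 10 µg/ml. Every LTA library exceeded both untreated libraries, the doses overlapped, and in each LTA group replicate 2 was the higher. FCGR2B rose by 2.75 ± 0.44 and 2.67 ± 0.44 at 24 h (adjusted p = 0.000543 and 0.000299). At 4 h the values of -2.59 ± 1.08 and -2.0 ± 0.99 were not called (adjusted p = 0.0745 and 0.124), but without untreated replicate 1 they were -3.29 and -2.71 (adjusted p = 0.0203 and 0.033). With no filter on low counts both were called (adjusted p = 0.00022 and 0.00193).

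FCER1G, the γ chain that FCGR1A, FCAR and LILRA1 signal through, was the most abundant member. FCER1G stood at 4 h at 385 and 284 CPM untreated, 530.3 and 437 CPM with 1 µg/ml and 517 and 518 CPM with 10 µg/ml. FCER1G stood at 24 h at 89.4 and 94.4 CPM untreated, 427 and 384 CPM with 1 µg/ml and 890.2 and 696 CPM with 10 µg/ml. The LTA libraries were above the untreated ones at both times, and at 24 h the doses were apart. FCER1G rose by 2.15 ± 0.18 and 3.14 ± 0.19 at 24 h (adjusted p = 2.78e-06 and 4.73e-08). At 4 h it rose by 0.53 ± 0.17 and 0.64 ± 0.17 (adjusted p = 0.0267 and 0.00946), the smallest called changes of the 6 members at that time. The FCER1G call with 1 µg/ml was lost without untreated replicate 2 (0.32, adjusted p = 0.197) or LTA replicate 1 (0.38, 0.178), with the groups fitted alone (0.54, 0.0675) and under upper-quartile scaling (0.42, 0.0551). The FCER1G call with 10 µg/ml was lost without untreated replicate 2 (0.43, adjusted p = 0.0853).

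FCAR, the IgA receptor, rose at both times and stood highest in the LTA groups at 4 h. FCAR stood at 4 h at 113 and 101 CPM untreated, 307 and 314 CPM with 1 µg/ml and 320.4 and 293 CPM with 10 µg/ml. FCAR stood at 24 h at 31.5 and 30.1 CPM untreated, 92.5 and 77.0 CPM with 1 µg/ml and 105 and 103 CPM with 10 µg/ml. All LTA libraries were apart from the untreated ones of their time. The 24 h libraries with 10 µg/ml overlapped the untreated 4 h pair, and those with 1 µg/ml lay below it. The rises were 1.54 ± 0.13 with each dose at 4 h (adjusted p = 1.23e-06 and 1.17e-06) and 1.47 ± 0.14 and 1.78 ± 0.14 at 24 h (adjusted p = 6.38e-06 and 4.08e-07).

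LILRA1, the activating LILR of the set, fell at 4 h and rose at 24 h. LILRA1 stood at 4 h at 23.5 and 22.5 CPM untreated, 3.43 and 3.94 CPM with 1 µg/ml and 2.05 and 2.80 CPM with 10 µg/ml. LILRA1 stood at 24 h at 11.5 and 11.9 CPM untreated, 22.3 and 20.1 CPM with 1 µg/ml and 37.5 and 35.7 CPM with 10 µg/ml. The 3 groups of each time were apart from each other. LILRA1 fell by 2.63 ± 0.19 and 3.22 ± 0.20 at 4 h (adjusted p = 2.67e-07 and 6.28e-08) and rose by 0.87 ± 0.16 and 1.67 ± 0.16 at 24 h (adjusted p = 0.00148 and 2.41e-06). The 24 h level with 1 µg/ml lay close under that of untreated cells at 4 h.

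LILRB1, an inhibitory receptor for HLA class I, was low at 4 h. It stood there at 3.98 and 4.02 CPM untreated, 0.857 and 2.05 CPM with 1 µg/ml and 0.391 and 1.77 CPM with 10 µg/ml, from 4 to 47 counts a library. LILRB1 stood at 24 h at 1.35 and 1.2 CPM untreated, 15.2 and 8.27 CPM with 1 µg/ml and 29.7 and 30.3 CPM with 10 µg/ml. The groups of each time did not overlap except the LTA doses at 4 h. LILRB1 rose by 3.20 ± 0.41 and 4.57 ± 0.40 at 24 h (adjusted p = 9.26e-05 and 1.35e-06), the largest change among the 9 members there at both doses. Its falls of 1.36 ± 0.48 and 1.85 ± 0.51 at 4 h (adjusted p = 0.0357 and 0.0103) rest on few counts. The LILRB1 call with 1 µg/ml was lost without untreated replicate 1 (-1.35, adjusted p = 0.0877) or 2 (-1.37, 0.0846) or LTA replicate 1 (-0.97, 0.174), and without LTA replicate 2 the value was -2.19. The LILRB1 call with 10 µg/ml was lost without LTA replicate 1 (-1.16, adjusted p = 0.105), and without LTA replicate 2 the value was -3.31. The counts of LILRA1 and LILRB1 summed gave -2.36 and -2.92 at 4 h and 1.35 and 2.39 at 24 h. LILRA1 gave more of these counts than LILRB1 in every library.

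LILRB2, the other inhibitory receptor for HLA class I, followed the same course at a higher level. LILRB2 stood at 4 h at 78.0 and 83.5 CPM untreated, 22.5 and 41.2 CPM with 1 µg/ml and 29.4 and 45.8 CPM with 10 µg/ml. LILRB2 stood at 24 h at 26.0 and 27.1 CPM untreated, 109 and 79.1 CPM with 1 µg/ml and 153 and 138 CPM with 10 µg/ml. At 4 h all LTA libraries were below the untreated ones and the doses overlapped, and at 24 h the 3 groups were apart. LILRB2 fell by 1.33 ± 0.25 and 1.09 ± 0.25 at 4 h (adjusted p = 0.00095 and 0.0034) and rose by 1.84 ± 0.25 and 2.48 ± 0.25 at 24 h (adjusted p = 0.000158 and 5.35e-06). With 10 µg/ml at 4 h the call was lost without LTA replicate 1 (-0.80, adjusted p = 0.0552).

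LILRB3, an ITIM receptor of neutrophils and monocytes, was not called at 4 h. It stood there at 50.9 and 35.3 CPM untreated, 38.9 and 35 CPM with 1 µg/ml and 37.6 and 34.6 CPM with 10 µg/ml, and the groups overlapped. The values of -0.22 ± 0.17 and -0.24 ± 0.17 (adjusted p = 0.328 and 0.282) depended on the untreated pair: they were 0.082 and 0.063 without replicate 1, and -0.47 and -0.49 without replicate 2 (adjusted p = 0.0389 and 0.0314). LILRB3 stood at 24 h at 7.49 and 8.67 CPM untreated, 39.3 and 38.8 CPM with 1 µg/ml and 60.8 and 59.0 CPM with 10 µg/ml. These 3 groups were apart, and LILRB3 rose by 2.29 ± 0.18 and 2.92 ± 0.19 (adjusted p = 1.82e-06 and 7.38e-08).

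LILRB4, an inhibitory receptor of myeloid cells, held 0 counts in 9 of 12 dHL-60 libraries and 1, 1 and 3 counts in the rest, all at 24 h with LTA. A count of 0 allows up to 3 counts, 0.162 to 0.367 CPM on the TMM-scaled totals of the 9 libraries. The uHL-60 libraries held 5 and 3 counts with LTA at 4 and 24 h, and 4 and 1 counts untreated. No test was made of it.

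Levels of cell type markers also differed between LTA and untreated cells. The 12 monocyte or macrophage markers summed to 809 to 856 CPM with 1 µg/ml and 1612 to 1698 CPM with 10 µg/ml at 24 h, against 196 to 200.5 CPM in untreated cells, and 4 and 5 of the 5 tested rose. At 4 h they summed to 1295 to 1340.2 CPM and 1116 to 1284 CPM, against 595 to 757 CPM untreated, and of the 5 tested 2 rose and 2 fell with 1 µg/ml and 3 rose and 2 fell with 10 µg/ml. Among these markers CD163, MRC1, MSR1, MARCO, C1QB and C1QC stayed under 1 CPM in every library. The 10 neutrophil markers summed to 1812 to 1828 CPM and 3207 to 3438 CPM at 24 h with LTA, against 454 to 477 CPM untreated, of which MMP9 alone reached 2514 CPM. Of the 10, 4 rose and 1 fell with 1 µg/ml and 4 rose and 0 fell with 10 µg/ml, with median log2 changes of -0.12 and -0.41. Over all genes 21.2% and 42.6% were called at 24 h with 1 and 10 µg/ml, and 38.7% and 41.3% at 4 h. With 10 µg/ml at 24 h the number of neutrophil markers called was thus close to the share of all genes. The 7 promyelocyte markers all fell at 24 h with either dose. Their part in the receptor changes was not tested, and in such bulk samples fewer cells of a type and less RNA per cell cannot be told apart.

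Upper-quartile scaling moved the median of all genes by -0.12 with 1 µg/ml and -0.13 with 10 µg/ml at 4 h. It gave 1805 genes higher and 3077 lower with 1 µg/ml at 4 h, against 2214 and 2380 with TMM, and 1868 and 3263 with 10 µg/ml, against 2379 and 2524. With 1 µg/ml at 24 h it gave 1441 and 1179, against 1651 and 862, and with 10 µg/ml 2484 and 2694, against 2797 and 2259. Every called member kept its direction under that scaling.

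The higher dose was set against the lower one. At 4 h 0 of 9 members were called between 10 and 1 µg/ml, as was 0.00843% of all genes (1 gene), and the member values ran from -0.59 ± 0.23 for LILRA1 to 0.58 ± 1.47 for FCGR2B. At an unadjusted p under 0.05 the test gave 216 genes of 11866, and DESeq2 called 2 genes. At 24 h 4 of 9 members were higher with 10 µg/ml than with 1 µg/ml, against 3.82% of all genes called. LILRB1 differed by 1.37 ± 0.32 (adjusted p = 0.0305), FCER1G by 0.98 ± 0.17 (0.00793), LILRA1 by 0.80 ± 0.15 (0.0109) and FCGR1A by 0.67 ± 0.14 (0.0207). LILRB2 at 0.65 ± 0.24, LILRB3 at 0.63 ± 0.17, FCGR2A at 0.43 ± 0.13, FCAR at 0.31 ± 0.13 and FCGR2B at -0.08 ± 0.38 were not called (adjusted p = 0.141, 0.0513, 0.0863, 0.18 and 0.922). Other settings called some of these. LILRB3 was called under RLE and upper-quartile scaling (adjusted p = 0.0453 and 0.0444), with no filter (0.00651), by DESeq2 (0.0207), summed with LILRA6 (0.0381) and with the groups fitted alone (0.0168). LILRB2 was called with no filter (0.00253) and with the groups fitted alone (0.0273), and FCGR2A by DESeq2 (0.0496). Each of the 4 calls was lost when some library was left out. Without replicate 1 of 1 µg/ml, FCGR1A (0.56, adjusted p = 0.188) and LILRA1 (0.89, 0.0504) lost theirs. Without replicate 2 of 1 µg/ml all 4 did (FCGR1A 0.77, 0.102; FCER1G 0.91, 0.122; LILRA1 0.73, 0.158; LILRB1 0.99, 0.241). Without replicate 1 of 10 µg/ml all 4 did as well (FCGR1A 0.72, adjusted p = 0.087, FCER1G 0.77, 0.11, LILRA1 0.75, 0.127, LILRB1 1.37, 0.168). Without replicate 2 of 10 µg/ml, FCGR1A (0.58, 0.0654) and LILRB1 (1.36, 0.0553) lost theirs.

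The receptors also changed with time in culture. In untreated dHL-60, 8 of 9 members were lower at 24 h than at 4 h, against 40.9% of all genes called in either direction. LILRB3 fell by 2.43 ± 0.19 (adjusted p = 9.13e-07), FCER1G fell by 1.87 ± 0.18 (5.35e-06), FCAR fell by 1.80 ± 0.14 (9.13e-07) and LILRB1 fell by 1.64 ± 0.46 (0.011). LILRB2 fell by 1.61 ± 0.25, FCGR1A by 1.08 ± 0.15, FCGR2A by 1.06 ± 0.14 and LILRA1 by 0.98 ± 0.16 (adjusted p of 4.88e-05 to 0.000303). FCGR2B at 1.36 ± 0.60 was not called (adjusted p = 0.085), and without untreated 4 h replicate 2 it was 3.28 (0.015). It was also called with no filter (1.39, adjusted p = 0.000273), summed with FCGR2C (1.76, 0.0117) and with the groups fitted alone (1.40, 0.0485). LILRB1 lost its call without untreated 24 h replicate 1 (-1.74, adjusted p = 0.0582) or 2 (-1.56, 0.0523). Over the same span the 12 monocyte or macrophage markers summed to 196 to 200.5 CPM at 24 h, against 595 to 757 CPM at 4 h. The 10 neutrophil markers summed to 454 to 477 CPM at 24 h, against 1020.2 to 1181 CPM at 4 h, and 7 of them fell. The 7 promyelocyte markers summed to 17292 to 22546 CPM at 24 h, against 9096 to 11924 CPM at 4 h, and 3 of them rose. The part of these shifts in the receptor changes was not tested.

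With LTA fewer members fell over the same span. FCGR2B passed the filter only through its 24 h groups, so it is left out of the counts here and given by its reads: 602 counts at 24 h against 4 at 4 h with 1 µg/ml, a ratio of 109 (95% exact binomial interval 42.5 to 403), and 520 against 6 with 10 µg/ml, a ratio of 69.2 (31.6 to 189). The 4 counts with 1 µg/ml came from 1 library, and without it no fold can be given, also for its difference in response. With 1 µg/ml 4 of the other 8 members were called between 24 and 4 h, against 48.7% of all genes: LILRB1, LILRA1 and LILRB2 were higher at 24 h by 2.92 ± 0.43, 2.51 ± 0.18 and 1.55 ± 0.25, and FCAR fell by 1.87 ± 0.13 (adjusted p of at most 0.000195). FCGR1A at -0.34 ± 0.14 was not called (adjusted p = 0.0625), but it was called at -0.40 under RLE scaling (0.0317) and by DESeq2 (0.0456), at -0.39 with the groups fitted alone (0.0433) and at -0.81 with FCGR1B counted in (0.000167). With 10 µg/ml all 8 were called, against 46.8% of all genes. FCAR fell by 1.55 ± 0.13 (adjusted p = 1.02e-06), and the other 7 were higher at 24 h, from FCGR1A with 0.43 ± 0.14 (0.0236) and FCGR2A with 0.57 ± 0.13 (0.00312) to LILRB1 with 4.77 ± 0.44 (1.79e-06). LILRB1, counted at both doses, reached the filter's minimum in 1 of 2 LTA libraries at 4 h with each dose, and in 2 of 2 untreated ones. With 10 µg/ml it held 789 counts at 24 h against 23 at 4 h, a ratio of 27.4 (95% exact binomial interval 18.1 to 43.5). The FCGR1A call was lost without 4 h replicate 1 (0.35, adjusted p = 0.166) or 2 (0.46, 0.0664) or 24 h replicate 2 (0.35, 0.13), and turned to -0.033 with FCGR1B counted in. That of FCER1G (0.62 ± 0.17, adjusted p = 0.00999) was lost without 4 h replicate 1 (0.59, 0.0656) or 2 (0.60, 0.0572) or 24 h replicate 1 (0.39, 0.135).

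Whether the LTA response itself differed between the times was tested as an interaction, 24 h minus 4 h. With 1 µg/ml 8 of 9 members had the higher response at 24 h, against 20.7% of all genes called, and with 10 µg/ml again 8 of 9, against 33.7%. FCGR2B is counted among the 8 at each dose, but it passed the filter only through its 24 h groups and held 0 to 23 counts a library at 4 h. Its differences are therefore to be read as values. Leaving it out, every other member tested but FCAR had the higher response at each dose. FCAR was the exception, with differences of -0.07 ± 0.19 and 0.25 ± 0.19 (adjusted p = 0.823 and 0.334). For LILRA1 the response changed sign, with differences of 3.49 ± 0.24 and 4.89 ± 0.25 (adjusted p = 1.73e-06 and 2.14e-07). It did so as well for LILRB1, with 4.56 ± 0.63 and 6.41 ± 0.64 (0.000227 and 1.22e-05), and for LILRB2, with 3.16 ± 0.36 and 3.57 ± 0.36 (5.07e-05 and 1.24e-05). LILRB3 differed by 2.51 ± 0.25 and 3.16 ± 0.25, FCER1G by 1.62 ± 0.25 and 2.49 ± 0.25, and FCGR2A by 1.23 ± 0.19 and 1.63 ± 0.19 (adjusted p of at most 0.000512). FCGR1A differed by 0.74 ± 0.21 and 1.51 ± 0.21 (adjusted p = 0.0234 and 0.000143). The first of these was lost without any of 5 libraries, namely untreated 4 h replicate 1 (0.56, adjusted p = 0.1), LTA 4 h replicate 1 (0.75, 0.0502) or 2 (0.70, 0.0692), untreated 24 h replicate 2 (0.67, 0.0799) and LTA 24 h replicate 2 (0.63, 0.104). It was also lost with the groups fitted alone (0.65, 0.0589) and with FCGR1B counted in (0.37, 0.187). FCGR2B differed by 5.33 ± 1.12 and 4.67 ± 1.05 (adjusted p = 0.00415 and 0.00432), which became 3.42 and 2.76 without untreated 4 h replicate 2 (0.216 and 0.237).

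Before any LTA, the differentiated cells already held more of these receptor RNAs. In untreated dHL-60 against untreated uHL-60, FCGR1A, FCGR2A, FCER1G and FCAR passed the filter in both states, and all 4 were higher, where 58.0% of 11884 genes were called in either direction. FCGR2B, LILRA1, LILRB1, LILRB2 and LILRB3 passed it only through dHL-60, where they are high, and their differences are given as values without a call. LILRB2 stood at 26.0 and 27.1 CPM at 24 h and 78.0 and 83.5 CPM at 4 h in dHL-60, against 0.206 and 0.150 CPM in uHL-60, which are 4 and 3 counts. LILRB3 stood at 7.49 to 50.9 CPM in dHL-60 against 0.310 and 0.4 CPM in uHL-60, and FCGR2A at 33.6 to 72.4 CPM against 6.04 and 3.85 CPM. For all 9 the untreated dHL-60 libraries lay above the untreated uHL-60 libraries. For LILRB2 the summed counts were 2586 in dHL-60 against 7 in uHL-60, a ratio of 272 (95% exact binomial interval 132 to 678). The log2 differences were 5.93 ± 0.48 for LILRB3, 4.63 ± 0.42 for LILRA1, 4.33 ± 0.92 for FCGR2B and 3.85 ± 0.65 for LILRB1. They were 3.66 ± 0.34 for FCAR, 3.24 ± 0.38 for FCGR2A, 3.09 ± 0.54 for FCER1G and 1.29 ± 0.31 for FCGR1A. The last was the smallest of the 9, and the adjusted p of these 4 ran from 4.68e-05 to 0.00717. Monocyte or macrophage markers summed to 196 to 757 CPM in untreated dHL-60 against 19.7 and 20 CPM in untreated uHL-60, promyelocyte markers to 9096 to 22546 CPM against 26404 and 26656 CPM, and 3 eosinophil markers to 2.04 to 21.3 CPM against 4385 and 4526 CPM. Nearly all of the uHL-60 eosinophil sum was PRG2 (4162 to 4509 CPM), and most of the uHL-60 monocyte or macrophage sum was CD68. PRG2 shares 43% of its exon bases with another gene on its strand. For 590 genes with over 10% and up to 50% shared, the median log2 ratio of dHL-60 to uHL-60 was -0.47. The eosinophil markers CLC and EPX reached 5.35 and 13.4 CPM in uHL-60, and 3.11 and 5.78 CPM in dHL-60. The part of counting in the PRG2 difference, and of the markers in the receptor differences, was not tested. FCGR1A stood at 14.3 to 35 CPM in untreated dHL-60 against 9.29 and 7.81 CPM in untreated uHL-60. The uHL-60 libraries share their cell state and any batch of their own, and these cannot be told apart.

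In uHL-60 the receptors were not seen to answer LTA. Over both times, 0 of the 5 members tested were called with 1 µg/ml against untreated, beside 0.209% of 11020 genes (23 genes), with 296 genes at an unadjusted p under 0.05 and 1 gene called by DESeq2. Among the 5 members LILRA1 was under that unadjusted level in edgeR's quasi-likelihood test (unadjusted p = 0.0371, adjusted p = 1). FCGR1A stood at 9.64 CPM with LTA and 9.29 CPM untreated at 24 h, and at 7.73 and 7.81 CPM at 4 h. FCER1G stood at 21.6 and 22.5 CPM with LTA and untreated at 24 h, and at 15.3 and 14.3 CPM at 4 h. LILRA1 had 22 counts with LTA against 9 counts untreated at 4 h, a ratio of 2.82 with a 95% exact binomial interval of 1.25 to 6.95, and 18 against 16 counts at 24 h (1.36, 0.657 to 2.86). With 1 library a group these intervals hold no replicate error. The fitted values over both times were 0.93 ± 0.44 for LILRA1, 0.24 ± 0.19 for FCAR, 0.03 ± 0.15 for FCGR1A, 0.02 ± 0.11 for FCER1G and 0.01 ± 0.19 for FCGR2A (adjusted p = 1 each).

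The responses of both states to 1 µg/ml were compared as an interaction, dHL-60 minus uHL-60, with each single uHL-60 library taken to vary as the dHL-60 pairs do. At 4 h 3 of 9 members tested differed, against 10.3% of 12603 genes called: FCAR by 1.48 ± 0.27 (adjusted p = 0.00343), FCGR1A by 1.03 ± 0.28 (0.0317) and LILRA1 by -4.11 ± 0.48 (0.000233). At 24 h 3 of 9 had the higher response in dHL-60, against 1.63% of all genes called: FCER1G by 2.20 ± 0.31 (adjusted p = 0.00341), FCGR1A by 1.70 ± 0.28 (0.00671) and FCGR2A by 1.26 ± 0.27 (0.0336). LILRB1 at 3.32 ± 1.59, LILRB2 at 1.95 ± 1.52, LILRB3 at 1.43 ± 0.76 and FCAR at 1.03 ± 0.28 were not called at 24 h (adjusted p = 0.369, 0.641, 0.43 and 0.0855). For LILRB1 and LILRB2 the uHL-60 libraries held 3 or 4 counts at 24 h, for FCGR2B 4 and 4 and for LILRB3 9 and 6. At 4 h they held 2 to 8 counts for LILRB1, LILRB2 and LILRB3. FCGR2B held 0 counts in both uHL-60 libraries at 4 h, so no fold is defined for it there. Such counts leave these members little room to be called, so 3 of 9 is not a share of members with enough counts. Summed with LILRA1, LILRB1 was called at 4 h (-3.81, adjusted p = 0.00126). FCGR1A at 4 h lost its call without untreated dHL-60 replicate 2 (0.88, adjusted p = 0.0688), without LTA replicate 1 (1.03, 0.0601) or 2 (1.06, 0.0525), and under upper-quartile scaling (0.93, 0.0513), which gave 577 genes higher and 799 lower against 684 and 619 with TMM. FCGR2A at 24 h lost its call without untreated dHL-60 replicate 1 (1.30, 0.0659) or 2 (1.26, 0.0711) or LTA replicate 2 (1.14, 0.0627).

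Close relatives of the members were followed as well. FCGR1B, named FCGR1BP and listed as a transcribed pseudogene in RefSeq, rose at 4 h by 1.85 ± 0.14 and 1.74 ± 0.14 with 1 and 10 µg/ml (adjusted p = 4.47e-07 and 5.98e-07). At 24 h it rose by 1.71 ± 0.15 and 2.38 ± 0.15 (3.35e-06 and 6.27e-08). Its counts relative to those of FCGR1A were 1.04 and 0.986 with 1 µg/ml and 1.02 in both libraries with 10 µg/ml at 4 h, against 0.490 and 0.675 in untreated cells. At 24 h the ratio was 0.430 to 0.499 in all 6 dHL-60 libraries, and in uHL-60 it was 0.194 to 0.261. The 4 LTA libraries at 4 h thus stood apart from the other 12 libraries. With the counts of FCGR1A and FCGR1B summed, the 24 h minus 4 h difference of the response with 1 µg/ml was 0.37 rather than 0.74.

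**Figure D4:**
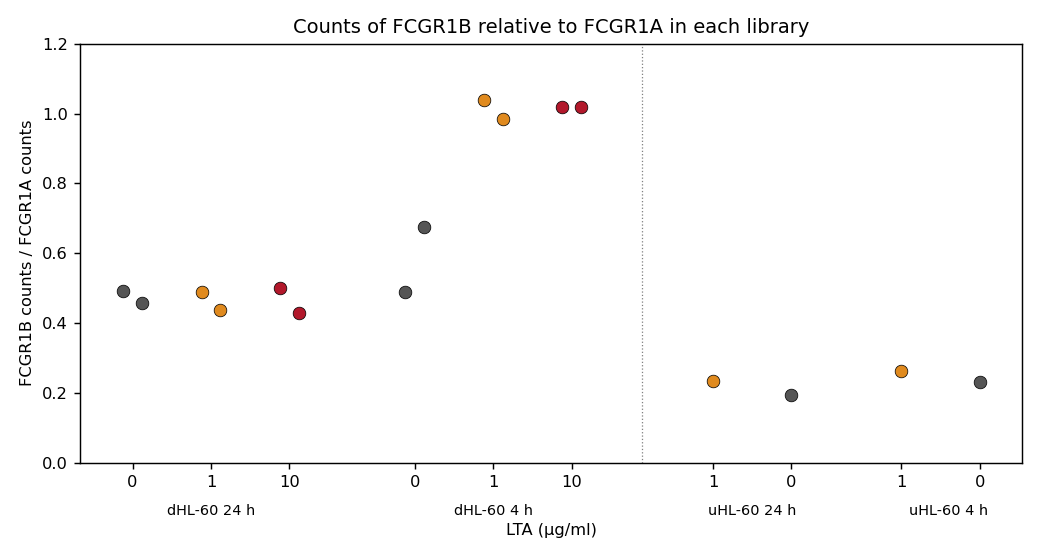
Counts of FCGR1B divided by counts of FCGR1A in each of the 16 libraries, by LTA dose in µg/ml, time and cell state. The 4 LTA libraries of dHL-60 at 4 h sit between 0.986 and 1.04, and no other library is above 0.675.

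FCGR2C, which shares sequence with FCGR2A and FCGR2B, had 162 and 303 counts with 1 µg/ml and 58 and 207 counts with 10 µg/ml at 24 h, against 115 and 54 counts untreated. As for FCGR2B, replicate 2 was the higher in each LTA group. Its change of 1.64 ± 0.41 with 1 µg/ml passed (adjusted p = 0.0114), and 0.94 ± 0.42 with 10 µg/ml did not (0.0853). FCGR3A and FCGR3B, the CD16 genes, had at most 13 and 23 counts in a library.

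Among the other LILR genes, LILRA5 and LILRA6 rose at 24 h and LILRA2 fell. LILRA5, an activating receptor, fell by 0.89 ± 0.31 and 1.00 ± 0.31 at 4 h (adjusted p = 0.034 and 0.0199) and rose by 2.74 ± 0.29 and 4.22 ± 0.28 at 24 h (1.83e-05 and 1.31e-07). LILRA6, whose sequence is close to that of LILRB3, fell by 0.75 ± 0.23 at 4 h with 10 µg/ml (adjusted p = 0.018) and rose by 2.47 ± 0.25 and 3.15 ± 0.25 at 24 h (1.34e-05 and 5.23e-07). LILRA2, an activating receptor with 15.8% of its exon bases shared with another gene on its strand, fell at 4 h by 1.52 ± 0.13 and 1.59 ± 0.13 (9.82e-07 and 5.98e-07) and fell at 24 h by 0.47 ± 0.12 and 0.34 ± 0.12 (0.0157 and 0.0407). LILRB5 had at most 6 counts in a library.

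Of 34 further Fc and LILR relatives, 17 were tested. Over all genes 38.7% and 41.3% were called at 4 h and 21.2% and 42.6% at 24 h with 1 and 10 µg/ml, with medians of -0.04, -0.04, 0.01 and -0.01. At 4 h 3 rose and 4 fell with 1 µg/ml, and 2 rose and 7 fell with 10 µg/ml (medians -0.46 and -0.75). At 24 h 6 rose and 2 fell, and 9 rose and 4 fell (medians 0.41 and 0.94). FCER2, the low-affinity IgE receptor, rose in all 4 comparisons, by 2.29 ± 0.33 and 2.55 ± 0.33 at 4 h and 2.83 ± 0.57 and 4.14 ± 0.51 at 24 h. The 24 h values rest on 6 and 2 FCER2 counts in untreated cells. FCGRT, the neonatal Fc receptor that recycles IgG, fell by 1.31 ± 0.16 at 4 h with 1 µg/ml (adjusted p = 2.09e-05), and OSCAR, a γ chain partner, rose by 0.44 ± 0.16 (0.0439). LAIR1, an inhibitory collagen receptor, fell at 24 h by 0.77 ± 0.12 and 0.51 ± 0.12 (0.000645 and 0.00474). FCRLB fell by 1.63 ± 0.53 at 4 h with 10 µg/ml (0.0239) and MS4A2, the β chain of the IgE receptor, fell by 1.62 ± 0.57 at 24 h with 10 µg/ml (0.0332). FCGR3B had 1 count with 10 µg/ml at 4 h against 28 untreated, a ratio of 0.0366 (95% counting interval 0.000895 to 0.221), and LAIR2 3 counts with 10 µg/ml at 24 h against 30, a ratio of 0.122 (0.0238 to 0.391).

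Kinases and adaptors that act below the ITAM and phosphatases recruited by the ITIM moved in both directions at 4 h, and at 24 h nearly all that were called rose. Of 44 signalling genes 41 were tested: 16 rose and 11 fell with 1 µg/ml and 17 rose and 10 fell with 10 µg/ml at 4 h, and 17 and 23 rose and 1 and 1 fell at 24 h (medians 0.28, 0.13, 0.38 and 0.57). That is 27 and 27 called at 4 h and 18 and 24 at 24 h, beside 38.7%, 41.3%, 21.2% and 42.6% of all genes. The kinase SRC rose by 2.63 ± 0.15 and 2.71 ± 0.15 at 4 h and by 2.91 ± 0.19 and 4.56 ± 0.18 at 24 h. LYN, the kinase that phosphorylates both motifs, rose at 4 h by 1.88 ± 0.14 and 1.98 ± 0.14, and FYN rose at 24 h by 2.55 ± 0.41 and 3.11 ± 0.40. The FYN values rest on 10 and 5 counts in untreated cells at 24 h. INPP5D (SHIP1), the phosphatase that FCGR2B recruits, fell at 4 h by 1.23 ± 0.15 and 1.24 ± 0.14 (adjusted p = 2e-05 and 1.68e-05). The adaptor DOK2 fell by 0.94 ± 0.15 and 0.81 ± 0.15 at 4 h, BTK by 0.85 ± 0.12 with 1 µg/ml and PRKCB by 0.79 ± 0.13 with 10 µg/ml. At 24 h LAT2 fell by 0.48 ± 0.16 with 1 µg/ml and CBLB by 0.70 ± 0.24 with 10 µg/ml (adjusted p = 0.0441 and 0.0338). NCF1, an oxidase subunit with near-identical copies and so uncertain, rose by 1.73 ± 0.30 to 3.45 ± 0.33 over the 4 comparisons.

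Of 20 genes listed as ligands of Fc and LILR receptors in general, not all of which bind the members described here, 12 were tested. At 4 h 2 and 3 rose and 1 and 1 fell with 1 and 10 µg/ml, and at 24 h 5 and 7 rose and 0 fell (medians 0.24, 0.23, 0.54 and 0.49), beside 38.7% and 41.3% of all genes called at 4 h and 21.2% and 42.6% at 24 h. PTX3, a pentraxin that binds Fcγ receptors, rose by 3.54 ± 0.24 at 4 h with each dose, and HLA-F, an HLA class I molecule, by 1.83 ± 0.23 and 1.70 ± 0.23. SELPLG fell by 1.87 ± 0.15 with each dose at 4 h. S100A8 and S100A9, which form calprotectin, rose at 24 h by 2.73 ± 0.19 and 2.59 ± 0.19 with 1 µg/ml and by 3.69 ± 0.20 and 3.66 ± 0.20 with 10 µg/ml. LGALS3 rose by 0.65 ± 0.24 at 4 h with 10 µg/ml (adjusted p = 0.0406) and by 1.82 ± 0.26 and 2.19 ± 0.26 at 24 h.

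Other paired and ITIM receptors of myeloid cells moved both ways at 4 h and mostly rose at 24 h. Of 31 genes 26 were tested, of which 6 rose and 8 fell with each dose at 4 h, and 18 rose and 2 fell with each dose at 24 h (medians -0.03, -0.14, 0.97 and 1.44), beside 38.7% and 41.3% of all genes called at 4 h and 21.2% and 42.6% at 24 h. TREM1, an amplifier of inflammation, rose by 1.43 ± 0.16 and 1.73 ± 0.16 at 4 h and by 3.93 ± 0.22 at 24 h with 10 µg/ml. CEACAM3, an ITAM receptor of granulocytes, rose by 1.31 ± 0.27 and 1.38 ± 0.27 at 4 h and by 3.90 ± 0.30 and 5.49 ± 0.30 at 24 h. PILRA rose by 1.15 ± 0.18 and 1.16 ± 0.18 at 4 h, and TREML2 by 2.62 ± 0.27 at 24 h with 1 µg/ml. PECAM1, an ITIM receptor, fell at 4 h by 2.34 ± 0.20 and 2.54 ± 0.20, CD300C by 1.77 ± 0.18 and 1.78 ± 0.18 and CD300LB by 1.56 ± 0.24 and 1.60 ± 0.24. CLEC12A fell at 24 h by 0.76 ± 0.18 and 0.77 ± 0.18 and PILRB by 0.70 ± 0.20 and 0.77 ± 0.20. SIGLEC1 had 37 and 47 counts with 1 and 10 µg/ml at 24 h against 2 untreated, ratios of 20.6 (95% counting interval 5.31 to 176) and 28.6 (7.48 to 243).

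For each member, the genes with the most similar course over the 12 dHL-60 libraries were sought among 9394 other genes of at least 5 CPM, by Pearson's r of log2 CPM. These r values describe 6 groups of 2 libraries, whose differences in dose and time they mostly follow. FCER1G was closest to CD14 (r = 0.989), CSTB (0.987) and S100A8 (0.982), and LILRB3 to S100A8 and LASP1 (0.984 each) and SASH3 (0.983). FCGR2A was closest to S100A9 (0.980), VIM (0.973) and CD14 (0.972), and FCGR1A to ZFP36L1 and ACTB (0.982 each) and SEMA4C (0.978). FCAR, which peaked at 4 h, was closest to ZBTB46 and PHLDA1 (0.995 each) and AQP9 (0.994). LILRA1 was closest to HAGH (0.988), AGFG2 (0.987) and SIRPB2 (0.979), LILRB1 to SAP30 (0.981), MYCL (0.975) and CORO1B (0.97), and LILRB2 to CTSB (0.976), MX2 (0.975) and PARP9 (0.973). FCGR2B was closest to VPS35 (0.982), ING1 (0.975) and ERO1A (0.974).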

How the data were processed

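RNA from 16 HL-60 libraries was prepared with a stranded mRNA kit, per the labels' protocols. The authors deposited raw counts per gene symbol. GRCh38, HISAT2 2.1.0, featureCounts 2.0.1, fastp 0.20.0, edgeR 3.36.0 and DESeq2 1.28.0 are listed, per the submitters' processing notes, without role or order. Read length, counting strand and the treatment of reads with several matches are not given in the sources used here.

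The uHL-60 columns were realigned to the symbols, since 1343 of 23575 symbols stood in another sort order: for those symbols the correlation of log2 mean counts (1 added) between cell states was 0.252 as deposited and 0.896 after realignment, beside 0.938 for the rest. Blank symbols numbered 0. The test was the quasi-likelihood one of edgeR 4.0.16 in R 4.3.3, fitted over all genes that passed filterByExpr, with TMM scaling, Benjamini-Hochberg adjustment and calls at an adjusted p under 0.05. SE is the log2 change divided by the root of F. The dHL-60 comparisons used the 12 dHL-60 libraries, those of untreated cells between states used the 6 untreated libraries with time as a term, those of responses between states used all 16, and the uHL-60 comparison used its 4 with time as a term. DESeq2 1.42.0, 2 other scalings, no filter, the compared groups alone, summed relatives, a replicate block and left-out libraries were tried as alternatives, and the code was tested on simulated data. List genes named are the 3 with the largest called change in each direction per list and comparison. Members and lists were chosen with earlier results of these data known.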

Additional observations from a re-analysis of the deposited data

Results flagged for a closer look

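Responses to LTA that differed between times or cell states by a test of the difference itself (edgeR's quasi-likelihood test, Benjamini-Hochberg adjusted) are collected here, as log2 differences. For 24 h minus 4 h in dHL-60 with 1 µg/ml they were 0.74 for FCGR1A, 1.23 for FCGR2A, 5.33 for FCGR2B, 1.62 for FCER1G, 3.49 for LILRA1, 4.56 for LILRB1, 3.16 for LILRB2 and 2.51 for LILRB3. With 10 µg/ml they were 1.51 for FCGR1A, 1.63 for FCGR2A, 4.67 for FCGR2B, 2.49 for FCER1G, 4.89 for LILRA1, 6.41 for LILRB1, 3.57 for LILRB2 and 3.16 for LILRB3. For dHL-60 minus uHL-60 with 1 µg/ml they were 1.03 for FCGR1A, 1.48 for FCAR and -4.11 for LILRA1 at 4 h, and 1.70 for FCGR1A, 1.26 for FCGR2A and 2.20 for FCER1G at 24 h. The 2 doses share the untreated libraries. The -4.11 of LILRA1 includes 22 counts with LTA against 9 untreated in single uHL-60 libraries. FCGR2B held 0 to 23 counts a library at 4 h, and its differences of 5.33 and 4.67 became 3.42 and 2.76 without untreated 4 h replicate 2.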

How the results depend on the processing

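Of 902 values of single receptor genes under settings other than left-out libraries, 871 kept direction and call, 5 lost the call, 22 gained it and 4 turned. Of 572 values with a library left out, 509 kept both, 41 lost the call, 5 gained it and 17 turned. The cause was not tested in any case. For 10 against 1 µg/ml at 4 h, 22 genes were called with no filter, 2 with DESeq2 and 2 with the groups alone, FCAR turned to 0.002 with no filter and FCGR2B to -0.079 when summed with FCGR2C. At 24 h the counts were 1354, 744 and 800. FCGR1A at 24 against 4 h with 10 µg/ml turned to -0.033 when summed with FCGR1B. For dHL-60 minus uHL-60 at 24 h, 652 genes were called with no filter and 391 with DESeq2. In uHL-60, DESeq2 called 1 gene and gave -0.0035 for FCGR2A.

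With libraries left out, LILRB3 ran from -0.47 to 0.082 with 1 µg/ml and from -0.49 to 0.063 with 10 µg/ml at 4 h. Genes called ran from 1139 to 1758 (1 µg/ml, 24 h), 3181 to 4355 (10 µg/ml, 4 h), 1 to 2 and 49 to 662 (10 against 1 µg/ml, 4 and 24 h), 3138 to 4226 (24 against 4 h, untreated), 1614 to 2270 and 2660 to 4051 (response, 24 minus 4 h, by dose) and 88 to 222 (dHL-60 minus uHL-60, 24 h). For 10 against 1 µg/ml at 4 h the ranges were -0.022 to 0.073 for FCGR2A, -0.11 to 4.90 for FCGR2B, -0.034 to 0.27 for FCER1G, -0.072 to 0.052 for FCAR, -1.95 to 0.35 for LILRB1, -0.12 to 0.74 for LILRB2 and -0.11 to 0.067 for LILRB3. At 24 h 0 to 2 members were called, and FCGR2B ran from -0.58 to 0.42. LILRB3 at 24 against 4 h with 1 µg/ml ran from -0.0034 to 0.15, and the FCAR response difference with 1 µg/ml from -0.22 to 0.054.

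Whether replicate numbers pair the libraries was not settled. Same-numbered deviations correlated above 0.1 in 6 of 15 pairs of groups (-0.42 to 0.57, median 0.10), which cannot decide it. A replicate block called 355 genes for dHL-60 minus uHL-60 at 24 h, against 205, and 663 for 10 against 1 µg/ml at 24 h, against 453. It also called FCGR2B at 4 h with 1 µg/ml (-2.61, adjusted p = 0.0289) and at 24 against 4 h untreated (1.52, 0.0208), and LILRB3 for 10 against 1 µg/ml at 24 h (0.63, 0.0356), and changed no other call of a receptor gene. Upper-quartile scaling moved the median gene by 0.12 between untreated dHL-60 and uHL-60. Low counts limit FCGR2B at 4 h, LILRB4 throughout and the LILRB genes in uHL-60.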
